A study of Mus musculus with 12 samples.

Results

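The non-fibrillar collagens of types VI, VIII, XII, XIV, XV, XVI and XVIII were followed through 10 genes, Col6a1, Col6a2, Col6a3, Col8a1, Col8a2, Col12a1, Col14a1, Col15a1, Col16a1 and Col18a1, taken by gene symbol from the 55414 genes of the count table. RNA-seq had been performed on the inferior vena cava (IVC) of 12 wild-type C57BL/6J mice (strain C57BL/6 in the labels), 10 weeks old, on postoperative day 7. 6 mice (3 male, 3 female) had an infrarenal aortocaval fistula (AVF), in which aortic blood is let into the vein, and 6 mice (3 male, 3 female) had a sham operation. Each mouse gave 1 library of poly-A RNA, and the mice of one operation and sex are numbered 1 to 3. In AVF mice the piece of IVC between the fistula and the left renal vein was taken, as whole tissue, so fewer cells of a type and less RNA per cell cannot be told apart.

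Collagens are trimeric matrix proteins whose chains carry glycine in each Gly-X-Y repeat of the triple helix, which leaves room for the tight packing of 3 chains. The fibrillar collagens form the load-bearing fibrils of the vessel wall, whereas the non-fibrillar types organize, link or border them. Collagen VI forms beaded microfilaments around cells from α1, α2 and α3 chains. Collagen VIII is a short-chain, network-forming collagen made by endothelial and smooth muscle cells, collagens XII, XIV and XVI belong to the fibril-associated collagens with interrupted triple helices, and collagens XV and XVIII are basement membrane collagens that carry heparan or chondroitin sulfate and release restin and endostatin from their C-terminal ends.

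The helix of each chain can be read in its coding sequence, in which the codons of glycine all begin with GG. In the canonical transcript of each gene (GENCODE M39, genome build GRCm39), runs of at least 5 consecutive triplets of codons with a GGN codon in the leading place were searched. All 10 members held such runs, against 1.82% of 21717 canonical coding sequences. The beginning of the longest run, 12 triplets, is shown for members of each subfamily on which the results below turn. Only the GGN codon in the leading place of each triplet is in capitals, and GGN codons in other places are in lower case. The stretches are read 5′ to 3′ on the coding strand and joined over exons. The coordinates thus give the ends of the stretch with any introns inside it.
Col6a1 (chr10:76554986-76556830, minus strand): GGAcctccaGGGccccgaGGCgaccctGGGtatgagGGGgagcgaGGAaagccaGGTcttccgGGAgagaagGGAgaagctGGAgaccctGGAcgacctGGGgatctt
Col6a2 (chr10:76447653-76449124, minus strand): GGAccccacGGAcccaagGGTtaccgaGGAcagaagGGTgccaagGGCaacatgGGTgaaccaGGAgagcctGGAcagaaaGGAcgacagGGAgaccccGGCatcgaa
Col6a3 (chr1:90717284-90720167, minus strand): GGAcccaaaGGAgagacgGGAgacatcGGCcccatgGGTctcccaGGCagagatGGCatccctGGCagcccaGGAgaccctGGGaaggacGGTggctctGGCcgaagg
Col8a1 (chr16:57448348-57448455, minus strand): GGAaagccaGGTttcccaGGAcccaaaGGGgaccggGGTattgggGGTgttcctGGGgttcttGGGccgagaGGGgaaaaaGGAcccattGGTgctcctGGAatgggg
Col12a1 (chr9:79519687-79521051, minus strand): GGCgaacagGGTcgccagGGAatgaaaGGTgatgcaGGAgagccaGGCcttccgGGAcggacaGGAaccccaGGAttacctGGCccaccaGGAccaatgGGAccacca
Col14a1 (chr15:55335104-55336720, plus strand): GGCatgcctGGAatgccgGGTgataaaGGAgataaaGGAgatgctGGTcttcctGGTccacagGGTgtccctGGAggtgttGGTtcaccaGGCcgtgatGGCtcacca
Col18a1 (chr10:76913011-76913580, minus strand): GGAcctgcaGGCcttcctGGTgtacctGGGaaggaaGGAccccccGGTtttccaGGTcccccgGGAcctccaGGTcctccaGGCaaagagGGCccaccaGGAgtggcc

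The 3 collagen VI chains had helices of nearly one size, 110 triplets in runs in Col6a1, 110 in Col6a2 and 111 in Col6a3, although Col6a3 has 2677 codons and the other two have 1025 and 1034. Col8a1 and Col8a2 had 154 triplets in runs each, which covered 61.0% and 65.2% of their codons. Col12a1 and Col14a1 also shared a design, with 84 triplets each, split into 5 runs near the end of the coding sequence, and 8.19% and 14.0% of codons inside them. Col16a1, also a fibril-associated collagen, differed from these, with 333 triplets in 21 runs and 62.8% of codons inside them. Col18a1 had 180 triplets in 16 runs and Col15a1 115 in 11 runs, and the longest run of each was 30 triplets.

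**Figure D1:**
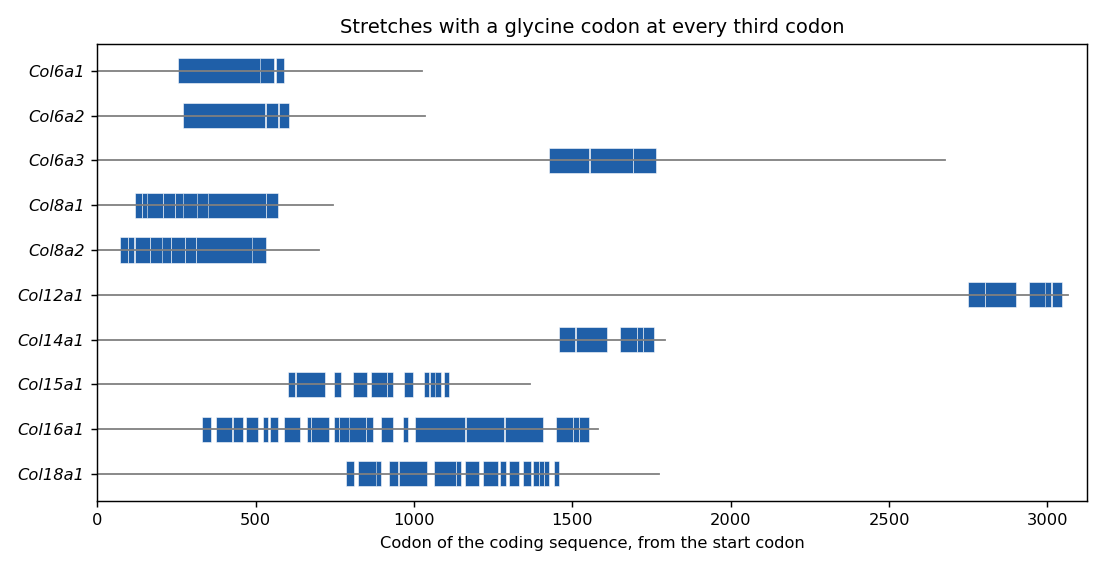
Coding sequence of each of the 10 genes as a grey line on an axis of codons, with the runs of at least 5 triplets that have a glycine codon in the leading place as blue boxes. The runs fill 8.19% of the codons of Col12a1, at its far end, and 65.2% of those of Col8a2.

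Counts were expected counts per gene, normalized with the trimmed mean of M values, and levels are reported in normalized CPM, for which each library is brought to a common effective size. The libraries held 15177881 to 22717423 counts. In AVF female 1 ribosomal RNA genes took 46.0% of the counts, against 2.39% to 12.6% in the other libraries. The 3 counts taken as the least detected were 0.127 to 0.323 normalized CPM, which covers counting error only, and the fewest counts of any member in any library were 29, in Col8a2. Markers of the vein wall were present in every library, from 568.7 to 1089 normalized CPM for the endothelial Pecam1 and from 564 to 1782 for Myh11, the smooth muscle myosin. Markers of other tissue were present as well. The summed expression of 6 hepatocyte genes was 2710 normalized CPM in AVF male 2 and 7770 in AVF female 2, against 0.381 to 4.30 in the other 10 libraries, so that AVF results are also given without these 2 mice. The sum of 5 brown adipocyte genes was 43.3 to 304.5 normalized CPM in AVF and 93.7 to 1719 in sham. The sum of 4 striated muscle genes was 457.3 normalized CPM in sham female 1 and 356.4 in sham female 3. It was 0.550 to 1.23 in the other sham libraries and 0.431 to 14.1 in AVF.

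All 10 members had higher expression after AVF creation than after the sham operation. In edgeR's quasi-likelihood test with Benjamini-Hochberg adjustment over 15912 genes, 10 of 10 had an adjusted p value under 0.05 with higher expression, where 8.63% of all tested genes did and 5.13% were lower. Among the other non-fibrillar collagens, 0 of 11 tested genes were called, with log2 fold changes from -0.60 to 1.08. Some of these genes had means under 1 normalized CPM in both groups, where the test has little power. Low level does not cover the others. Col6a5 (log2 fold change 0.75, SE 0.47), Col6a6 (-0.02, SE 0.25), Col23a1 (0.55, SE 0.21) and Col28a1 (-0.60, SE 0.27) had group means of 19.5 to 87.2 normalized CPM. In sham, the members Col8a1 and Col12a1 had means of 44.4 and 30.8. An uncalled gene is not read as unchanged, and the difference between these genes and the members was not tested. At a threshold of 2-fold or more, 6 of 10 passed (3.37% of all tested genes), namely Col6a3, Col8a1, Col8a2, Col12a1, Col14a1 and Col16a1. Every AVF library was above every sham library in 8 of 10 members, against 4.55% of tested genes, and the groups overlapped in Col15a1 and Col16a1. The median log2 fold change was 1.06 over the members and -0.01 over all tested genes. Without AVF male 2 and AVF female 2, 10 of 10 were again higher, with a median of 1.17 against -0.03 over all tested genes, of which 5.74% were called higher.

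**Figure D2:**
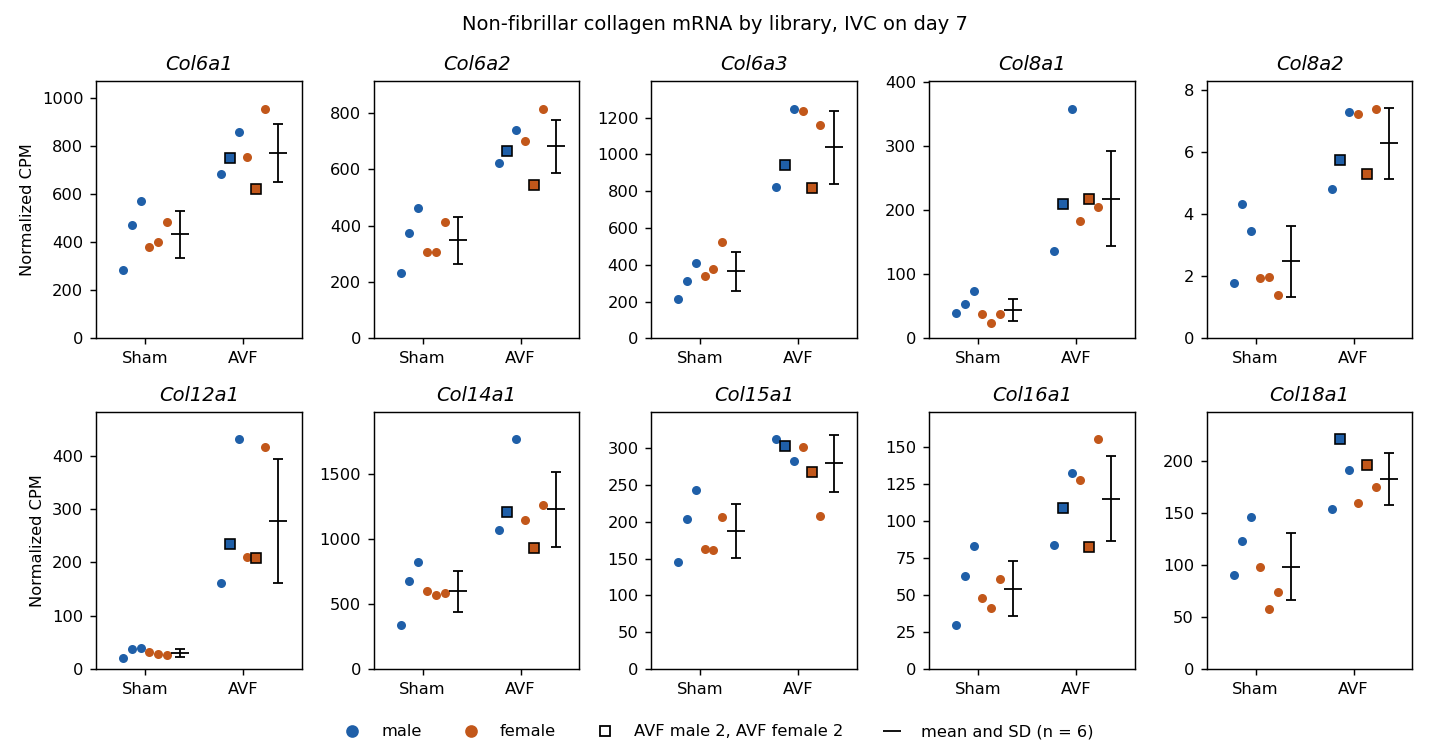
Normalized CPM of each gene in every library, on linear axes from 0, with sham and AVF side by side. Points are single mice (blue male, orange female, squares AVF male 2 and AVF female 2) and the bars show the mean and SD of 6 libraries. Sham and AVF points are separate in 8 of the 10 panels and meet in Col15a1 and Col16a1.

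Col12a1 showed the largest change of the members. Its product, the collagen XII α1 chain, lies on the surface of collagen I fibrils and is known from tissues under mechanical load. Expression in AVF was 161.4, 235.2 and 430.6 normalized CPM in male mice 1 to 3 and 210.5, 208.6 and 417.3 in female mice 1 to 3. In sham it was 20.9, 37.5 and 39.6 in male and 32.2, 28.4 and 26.2 in female mice. The lowest AVF library thus held several times the highest sham library, and AVF male 3 and AVF female 3 stood above the other 4 AVF libraries. The log2 fold change was 3.17 (SE 0.27, edgeR adjusted p = 6.45e-05), and 7 was its rank by p among the 15912 genes. Without AVF male 2 and AVF female 2 it was 3.31.

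Col14a1, whose helix is laid out like that of Col12a1, was the most abundant of the 10 genes on either scale. Collagen XIV binds decorin on fibrils and is known to limit their lateral growth. In AVF it ranged from 930.7 in AVF female 2 through a median of 1180 to 1770 in AVF male 3, and in sham from 337.4 in sham male 1 through 591.9 to 825.6 normalized CPM in sham male 3. The groups did not overlap, and the log2 fold change was 1.04 (SE 0.20, edgeR adjusted p = 0.00631). Col14a1 counts were 16.1 to 22.3 times those of Col12a1 within a sham library, but 3.02 to 6.62 times within an AVF library. The log2 ratio of Col14a1 over Col12a1 was 4.27 ± 0.17 (SD, n = 6) in sham and 2.22 ± 0.39 (SD, n = 6) in AVF, a difference of -2.04, with p = 0.00216 in an exact permutation test (two-sided, 0.00361 after adjustment over 5 ratios), the smallest p that 6 against 6 libraries allow.

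Col16a1, whose product is found near fibrils and at the surface of smooth muscle cells, had 82.5 to 155 normalized CPM in AVF (median 118.3) and 29.9 to 83.3 in sham (median 54.2). AVF female 2, at 82.5, was below sham male 3, at 83.3, and AVF male 1, at 83.5, was just above it. The log2 fold change was 1.08 (SE 0.23, edgeR adjusted p = 0.0121).

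Of the collagen VIII genes, Col8a1 had the largest fold change after Col12a1. Col8a1 had 135.8, 209.7 and 358.1 normalized CPM in male AVF mice 1 to 3 and 182.3, 216.8 and 204.8 in female AVF mice. The sham values were 39.5, 54.2 and 73.1 in male and 38.1, 23.96 and 37.7 in female mice. No AVF library came near the sham range, and AVF male 3 was far above the other AVF libraries. The log2 fold change was 2.29 (SE 0.27, edgeR adjusted p = 3.60e-04). Col8a2, the second chain, was the lowest of the members, with 4.80 to 7.40 normalized CPM in AVF and 1.40 to 4.34 in sham, 29 to 161 counts a library. Its log2 fold change was 1.33 (SE 0.27, edgeR adjusted p = 0.00836). The ratio of Col8a2 over Col8a1 counts was 0.0203 to 0.0396 in AVF and 0.0372 to 0.0830 in sham. The groups overlapped in this ratio, which differed by -0.88 on the log2 scale, AVF minus sham (exact permutation test, two-sided, p = 0.00433, 0.00541 after adjustment over 5 ratios).

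Among the collagen VI genes, Col6a3 changed most. In AVF, Col6a3 had 824.6, 943.4 and 1249 normalized CPM in male mice 1 to 3 and 1233, 819.3 and 1158 in female mice 1 to 3, and in sham 212.5, 314.3 and 412.2 in male and 341.1, 377.6 and 522.5 in female mice. The groups were apart, and the log2 fold change was 1.51 (SE 0.20, edgeR adjusted p = 6.60e-04). Col6a3 encodes the large α3 chain, from which the fragment endotrophin is cut. Col6a1 had 621.5 to 955.4 normalized CPM in AVF (median 753.6) and 285.8 to 571.4 in sham (median 436.2). Its log2 fold change was 0.83 (SE 0.16, edgeR adjusted p = 0.00593). Col6a2 had 544 to 816 in AVF (median 682.6) and 231.5 to 462.6 in sham (median 340.3), with a log2 fold change of 0.97 (SE 0.16, edgeR adjusted p = 0.00257). AVF female 2 was the lowest AVF library in all 3 genes and still above every sham library.

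The 3 chains did not change by the same factor. Counts of Col6a3 were 0.668 to 1.08 times those of Col6a1 in sham and 1.21 to 1.63 times in AVF, with no overlap, a log2 difference of 0.69 (exact permutation test, two-sided, p = 0.00216, 0.00361 adjusted over 5 ratios). The ratio of Col6a2 over Col6a1 was much less spread, 0.766 to 0.848 in sham and 0.854 to 0.927 in AVF. This small shift of 0.14 on the log2 scale also had no overlap between the groups (exact permutation test, two-sided, p = 0.00216, 0.00361 adjusted over 5 ratios). These are ratios of mRNA within a library, which do not depend on the normalization between libraries.

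**Figure D3:**
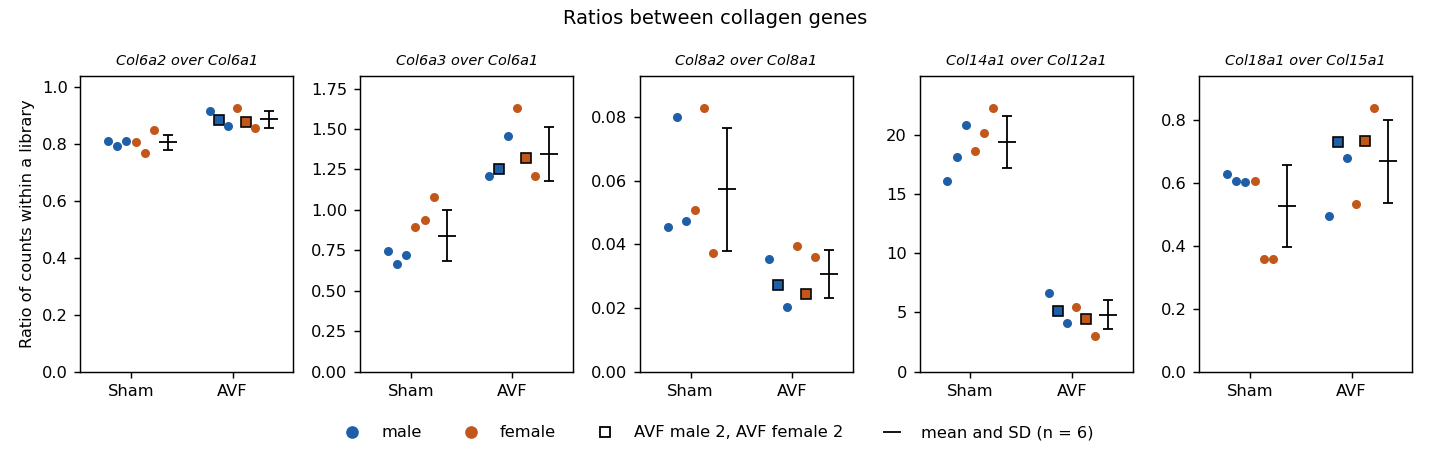
Ratio of the counts of 2 collagen genes within each library, on linear axes from 0, for sham and AVF (blue male, orange female, squares AVF male 2 and AVF female 2), with the mean and SD of 6 libraries. The groups are apart in Col6a2 over Col6a1, Col6a3 over Col6a1 and Col14a1 over Col12a1, and overlap in Col8a2 over Col8a1 and Col18a1 over Col15a1.

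The basement membrane members Col15a1 and Col18a1 changed by less than 2-fold. Col15a1 had 311.5, 302.6 and 282.3 normalized CPM in male AVF mice 1 to 3 and 301.9, 267.5 and 208.4 in female AVF mice, against 145 to 243.1 in sham. AVF female 3, the lowest AVF library, lay below sham male 3 and barely above sham female 3, at 206.7. The log2 fold change was 0.58 (SE 0.14, edgeR adjusted p = 0.0183), the smallest of the 10. Without AVF male 2 and AVF female 2 it was 0.56, with an adjusted p of 0.0494 in the same test. With a replicate block and without these mice and the sham mice of their number and sex, a fit added after the data were seen, it was 0.55 and did not pass (edgeR adjusted p = 0.184). Col18a1 had 153.8 to 221 normalized CPM in AVF (median 183.4) and 57.9 to 146.3 in sham (median 94.7), without overlap, and a log2 fold change of 0.89 (SE 0.19, edgeR adjusted p = 0.0125). AVF male 2, at 221, and AVF female 2, at 196.4, were the highest AVF libraries in Col18a1, whereas in 5 other members AVF female 2 was the lowest. Without these 2 mice the log2 fold change of Col18a1 was 0.79 (edgeR adjusted p = 0.0414). In the fit with a replicate block that was added later, it was 0.77 (edgeR adjusted p = 0.0494), near the threshold. The log2 ratio of Col18a1 over Col15a1 was 0.36 higher in AVF, which did not pass (exact permutation test, two-sided, p = 0.123, 0.123 adjusted over 5 ratios).

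**Figure D4:**
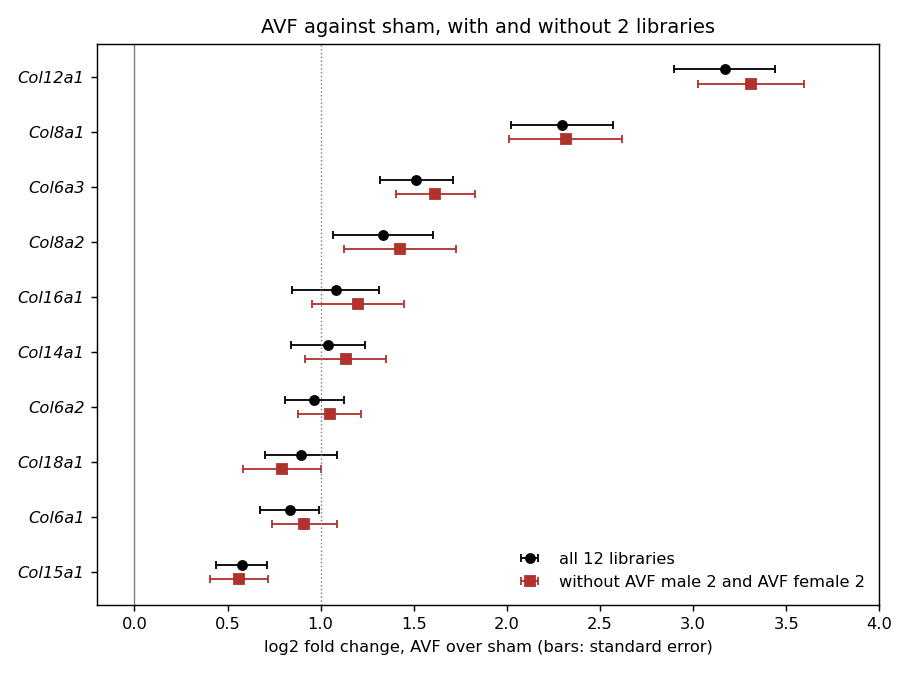
log2 fold change of AVF over sham for each gene with its standard error, from edgeR's quasi-likelihood fit of all 12 libraries (black) and without AVF male 2 and AVF female 2 (red). The dotted line marks 2-fold. Values run from 0.58 for Col15a1 to 3.17 for Col12a1 with all libraries, and from 0.56 to 3.31 without the 2 libraries.

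Per length of transcript, the order of the members changed between the groups. In sham, Col14a1 was at 85.4 ± 22.7 (SD, n = 6) normalized CPM per kilobase of exon and Col6a1 at 74.0 ± 16.9, followed by Col6a2 at 31.7 ± 7.57, Col6a3 at 30.2 ± 8.59 and Col15a1 at 27.0 ± 5.32. Col18a1 (13.9 ± 4.57), Col16a1 (7.51 ± 2.59), Col8a1 (5.67 ± 2.17), Col12a1 (2.01 ± 0.461) and Col8a2 (0.493 ± 0.228) came after them. Over sham libraries, the ranges of neighbours in this order were separate between Col6a1 and Col6a2, Col15a1 and Col18a1, Col8a1 and Col12a1, and Col12a1 and Col8a2, and overlapped between the others. In AVF, Col14a1 (176 ± 41.1) and Col6a1 (132 ± 20.6) remained at the top. Col6a3 (86.1 ± 16.6) stood before Col6a2 (62.0 ± 8.56), and Col8a1 (27.8 ± 9.54) and Col12a1 (18.1 ± 7.59) stood among Col15a1 (40.2 ± 5.49), Col18a1 (25.9 ± 3.55) and Col16a1 (15.9 ± 3.98), where all neighbours overlapped. Col8a2 (1.25 ± 0.227) was again the lowest. The other separate neighbours in AVF were Col6a1 and Col6a3, Col6a2 and Col15a1, and Col16a1 and Col8a2. The place of Col6a2 depends on which isoforms are counted in its length. With the length of the longest transcript in place of all exons, Col6a2 in AVF was at 113 ± 15.6 and stood before Col6a3, at 101 ± 19.3. With this length, Col6a1 was also no longer separate from the chains below it. In sham, Col6a1 ranged from 51.4 to 103 and Col6a2 from 38.2 to 76.4. In AVF, Col6a1 ranged from 112 to 172, Col6a2 from 89.9 to 135 and Col6a3 from 79.3 to 121. The 10 members made up 11.7% to 14.0% of the expression per kilobase of the 44 protein-coding collagen genes in AVF and 12.6% to 16.7% in sham. The 11 fibrillar collagens made up 78.4% to 81.5% in AVF and 75.3% to 81.0% in sham.

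No member was called between the sexes. In AVF mice, 0 of 10 members were called between female and male (0.0316% of 22123 tested genes, edgeR's quasi-likelihood test), 0 had an unadjusted p under 0.05 (731 of all tested genes did), and DESeq2 also called 0. The log2 differences, female minus male, ran from -0.29 for Col14a1 (95% interval -0.86 to 0.28) to 0.16 for Col16a1 (-0.46 to 0.77), so that differences of 1.5-fold and more lay inside these intervals. In sham mice, 0 of 10 were called (0.0818% of 21992 tested genes), 2 had an unadjusted p under 0.05, as did 2030 of all 21992 genes, and DESeq2 called 0. The 2 members, a share that is read against this background and not as a difference between the sexes, were Col8a1, with a log2 difference of -0.74, female minus male (95% interval -1.32 to -0.16, adjusted p = 0.477), and Col18a1, with -0.64 (-1.17 to -0.12, adjusted p = 0.489). Col8a2 had a difference of -0.84 (-1.68 to 0.00, adjusted p = 0.541). The interaction of operation and sex was called for 0 of 10 members (0% of 15912 tested genes), with 1 unadjusted p under 0.05, as had 813 of all 15912 genes. It was that of Col8a2, a log2 difference of 1.01 (95% interval 0.01 to 2.00, adjusted p = 0.931). DESeq2 called 0 members for the interaction. Each of these comparisons has 3 mice per operation and sex. Sham female 1 and sham female 3 also held striated muscle RNA, whose part in the comparison of the sexes in sham was not tested.

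Within the groups, most members varied together from mouse to mouse. After the mean of the operation group was subtracted from log2(normalized CPM + 1), 43 of 45 pairs of members had a positive Pearson correlation over the 12 libraries, with a median r of 0.59. Genes measured in one library share its depth and tissue composition, which differ between libraries, so these are given as descriptions. The same share over pairs of all tested genes was not computed, so the values are not read as particular to the members. Col6a1 and Col6a2 had r = 0.99, and Col16a1 had r = 0.96 with each of them. Among all tested genes, the one most like Col6a1 was Col6a2, and the one most like Col16a1 was Col6a1. Col6a3 had r = 0.79 with Col6a1 and 0.82 with Col6a2, but its 3 most similar genes were Aff3 (0.93), Prima1 (0.91) and Ak1 (0.90). The genes named here and below as most like a member have the highest r among all tested genes. Over 12 libraries a high r can arise from that selection alone.

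Col8a1 was close to Col18a1 (r = 0.82), and the genes most like it were Snx18 (0.95), Postn (0.95), which encodes the matrix protein periostin, and Zfp521 (0.92). Those most like Col12a1 were Sf3b2 (0.95), Pi16 (0.95), a marker of adventitial fibroblasts, and Cdhr1 (0.93). For Col14a1 they were Slc6a17, Fras1 and Wee1 (0.93, 0.92 and 0.91), for Col18a1 Sp140, Pawr and Mmp11 (0.93, 0.91 and 0.91), for Col8a2 Magi3, Ehbp1 and Zdhhc20 (0.94, 0.90 and 0.89), and for Col15a1 Sema5a, Disp1 and Slc39a10 (0.88 each). Col18a1 and Col15a1 had the lowest median r with the other members, 0.39 and 0.41. The r of Col15a1 ran from -0.07 with Col12a1 to 0.52 with Col6a2, and that of Col18a1 from -0.13 with Col6a3 to 0.82 with Col8a1.

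**Figure D5:**
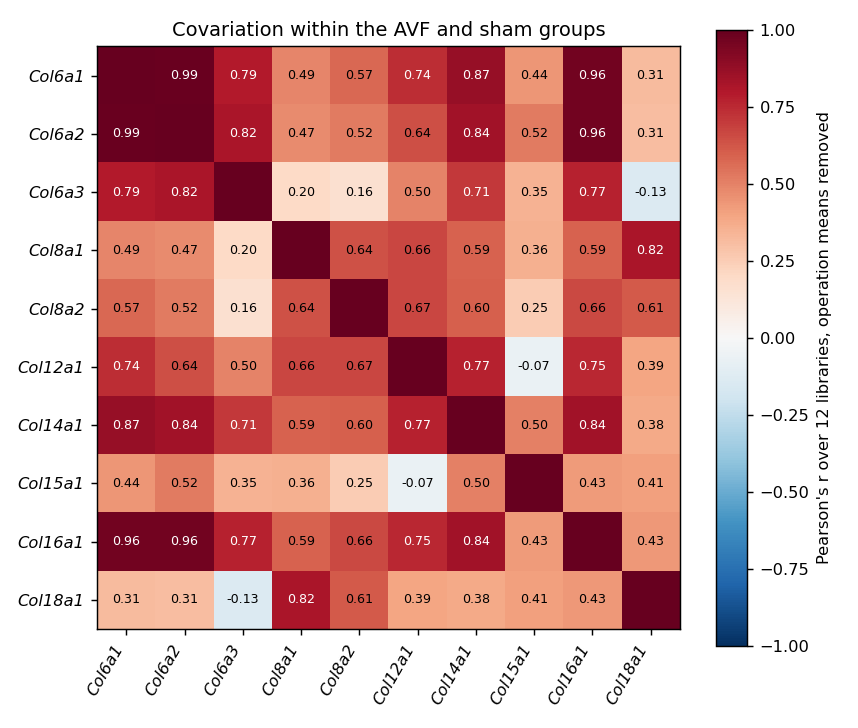
Pearson's r between each pair of the 10 genes over 12 libraries after subtraction of the AVF and sham means, on a colour scale from -1 to 1. Col6a1, Col6a2 and Col16a1 form the darkest block (0.96 to 0.99), and the values of Col15a1 and Col18a1 with most others are paler.

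Sums of some tissue markers moved with the members within the groups. The sum of 6 smooth muscle genes correlated with the members by r = 0.14 to 0.79 (median 0.66), and that of 5 brown adipocyte genes by -0.75 to -0.24 (median -0.65). The sums of the white adipocyte genes (median r = -0.58) and Schwann cell genes (0.62) also followed the members. Those of 6 endothelial genes (0.11) and 6 hepatocyte genes (-0.31) did so less. For the remaining lists the median r was 0.41 (fibroblast), 0.32 (macrophage), 0.30 (neuron) and 0.01 (striated muscle). Between the groups, 0 of 6 smooth muscle, 0 of 6 endothelial, 0 of 5 white adipocyte and 0 of 2 tested striated muscle markers were called. Of the neuron and Schwann cell markers 0 of 5 and 0 of 4 were called as well, but all of them had log2 fold changes below 0, with medians of -1.08 and -0.77. The summed neuron markers were at 105.5 to 577 normalized CPM in AVF and 246 to 958.1 in sham, and the summed Schwann cell markers at 161 to 377.3 and 299.7 to 730.9. All 6 hepatocyte markers were higher in AVF, with 0 normalized CPM of Apob, Ttr, Fabp1 and Cps1 in at least 1 AVF library, and the members were called as well without the 2 mice that held most of this signal. 2 of 5 brown adipocyte markers, Cpt1b and Cidea, were lower in AVF, and Ucp1, the defining marker, was detected in every library, from 1.69 to 121 normalized CPM in AVF and 22.9 to 1088 in sham. Of 6 fibroblast markers 3 were higher (Mfap5, Pi16 and Dpt) and 2 lower (Gsn and Clec3b). Their sum was 2201 to 2940 normalized CPM in AVF and 2942 to 3919 in sham. Gsn, the largest of them, was at 1165 ± 235 (SD, n = 6) in AVF and 2255 ± 276 in sham. Of 6 macrophage markers 4 were higher, led by C1qa, Adgre1 and Csf1r. The part that brown fat, nerve and the other cell types had in the differences of the members was not tested.

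The other collagens and the genes that process and bind collagens were counted in lists by the same test. Over all 15912 tested genes, 8.63% were higher and 5.13% lower. The 11 tested genes among the other non-fibrillar collagens had a median log2 fold change of 0.16. They included the further collagen VI chains Col6a5, at 87.2 ± 54.6 (SD, n = 6) normalized CPM in AVF and 51.8 ± 32.5 in sham, and Col6a6, at 57.8 ± 19.1 and 58.7 ± 20.3. Of 9 fibrillar collagens 5 were higher, led by Col5a2 (log2 fold change 1.47), Col5a1 (1.39) and Col3a1 (1.17), and Col27a1 was lower (-0.61), with a median of 1.17. Of the 6 collagen IV genes of the basement membrane 3 were higher, Col4a2 (1.36), Col4a1 (1.37) and Col4a5 (1.17), with a median of 0.95.

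Genes that fold and modify collagen were higher in 14 of 20, lower in 0, with a median of 0.53. Those with the lowest adjusted p values were Plod3 (0.52), a lysyl hydroxylase that also glycosylates collagen, Fkbp10 (1.18), a prolyl isomerase, and Serpinh1 (0.73), the collagen chaperone HSP47. Of 13 tested binding partners 7 were higher, led by the small leucine-rich proteoglycan lumican (Lum, 1.29), fibulin-2 (Fbln2, 1.10) and tenascin-C (Tnc, 1.53), and Vwa1, which binds perlecan, was lower (-0.53). Of 14 collagen receptors 3 were higher, the collagen uptake receptor Mrc2 (1.57) and the integrin chains Itgb1 (0.53) and Itga10 (0.72), and 0 were lower. The median log2 fold change of the receptors was 0.11, and Itga10 was near the threshold (edgeR adjusted p = 0.0468). Among 9 tested proteases known to release collagen fragments, 4 were higher, led by Mmp14 (1.33), Mmp2 (0.77) and Bmp1 (0.83), and Mmp9 was lower (-0.99).

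3 members lie on chromosome 10 of GRCm39, all on the minus strand. Col6a2 (76429660 to 76459549) and Col6a1 (76543440 to 76562283) are 83890 bases apart, and Col18a1 (76888012 to 77002390) lies 325728 bases beyond Col6a1. The protein-coding genes annotated between them had lower means in AVF and did not pass the test. Pcbp3, between Col6a1 and Col18a1, was at 16.5 ± 6.55 (SD, n = 6) normalized CPM in AVF and 29.9 ± 9.41 in sham (log2 fold change -0.86, adjusted p = 0.0678, edgeR's quasi-likelihood test). Slc19a1, the reduced folate carrier, overlaps the end of Col18a1 on the opposite strand and was at 3.19 ± 0.410 and 4.82 ± 1.23 (-0.59, adjusted p = 0.0505, same test). The counting was strand-specific, with 33048 counts over all libraries for Col18a1 and 977 for Slc19a1.

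The bases before the transcription start of each gene's canonical transcript were searched for 4 motifs on both strands in a window of 250 bases. Other starts of the same gene were not searched. For Col18a1 the start used, base 76949780 of its chromosome, lies inside the annotated gene (76888012 to 77002390). The first was TATAAA, the TATA box of core promoters. The second was GGGCGG, the GC box bound by Sp1 and its relatives. The others were TGANTCA, a site of the AP-1 factors, and GGAATG, a site of the TEAD factors. GGGCGG was in 5 of 10 members, Col6a2, Col8a1, Col8a2, Col12a1 and Col14a1, and in 36.3% of 21757 protein-coding genes. TATAAA was in 1 of 10, Col14a1 (11.9% of all), GGAATG in 1 of 10, Col6a1 (12.1%), and TGANTCA in 0 of 10 (6.18%). The last 200 bases before the start are shown for the 2 members with the largest fold changes and for Col15a1, with the smallest, with matches on either strand in capitals, read 5′ to 3′ on the gene's strand, from the GRCm39 genome.
Col8a1 (chr16:57575101-57575300, minus strand): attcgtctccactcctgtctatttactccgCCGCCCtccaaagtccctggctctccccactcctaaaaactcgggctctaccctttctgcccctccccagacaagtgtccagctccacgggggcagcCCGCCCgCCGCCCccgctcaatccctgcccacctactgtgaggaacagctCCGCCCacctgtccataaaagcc
Col12a1 (chr9:79626136-79626335, minus strand): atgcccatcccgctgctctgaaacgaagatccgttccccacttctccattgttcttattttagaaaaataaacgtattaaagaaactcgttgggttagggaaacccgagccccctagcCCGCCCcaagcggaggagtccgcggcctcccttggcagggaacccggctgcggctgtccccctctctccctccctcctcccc
Col15a1 (chr4:47207382-47207581, plus strand): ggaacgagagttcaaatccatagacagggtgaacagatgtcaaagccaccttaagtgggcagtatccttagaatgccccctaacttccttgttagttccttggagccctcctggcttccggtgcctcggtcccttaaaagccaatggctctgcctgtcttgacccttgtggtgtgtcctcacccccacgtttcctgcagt
Col8a1 had 4 matches of GGGCGG, all read on the opposite strand as CCGCCC, Col12a1 had 1 and Col15a1 had 0.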

How the data were processed

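After trimming (PRINSEQ, Trimmomatic 0.39) and alignment to GRCm39 with STAR 2.7.7a, the authors estimated expected counts per gene with RSEM 1.3.3, strand-specific, and deposited them unnormalized. Expected counts share reads between similar genes. Here the counts were rounded, and TMM factors and the quasi-likelihood test were taken from edgeR 4.0.16 in R 4.3.3, with Benjamini-Hochberg adjustment over all tested genes. Genes needed over 1 CPM in 2 or more samples, or over 12 counts in total for the comparisons of the sexes. A gene was called at an adjusted p value under 0.05. DESeq2 1.42.0 was an alternative, and the test was tested on simulated data. Ratios were compared with exact permutation tests. Names, lengths and sequences came from GENCODE M39 and the GRCm39 genome. Groups came from the sample labels, 1 mouse per library. AVF male 2 and AVF female 2 are the libraries the paper treats as outliers. Members and gene lists were chosen with earlier results of these data known. Named genes were the members, genes between Col6a1 and Col18a1, and the 3 genes most correlated with each member. From each list, at most 3 called genes per direction were named by adjusted p. Other genes were named after their values were seen (Col6a5, Col6a6, Col23a1, Col28a1, Pecam1, Myh11 and Ucp1).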

Additional observations from a re-analysis of the deposited data

Results flagged for a closer look

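Of 30 groups of 6 libraries examined (the 10 members and 5 ratios, in AVF and in sham), 1 had a library set apart from the others by Dixon's test at the 95% level. Col8a1 in AVF male 3 was at 358.1 normalized CPM, against 135.8 to 216.8 in the other 5 AVF libraries. Chance marks about 1 group in 20.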

How the results depend on the processing

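The members called higher in AVF were 10 of 10 under 23 of 24 alternatives and 6 of 10 with a threshold of at least 2-fold, which by construction leaves out Col6a1, Col6a2, Col15a1 and Col18a1. With each library left out in turn, the number was 10 in every case. Of the 250 values of the members' log2 fold changes under 25 alternatives, 245 kept direction and call and none turned. The labels do not say whether the replicate numbers pair the mice. Deviations from the group means correlated by more than 0.1 in 3 of 6 pairs of the same number and sex (-0.13 to 0.25). Their mean r was 0.10, against -0.02 for other pairs of an AVF and a sham library, which is too few pairs to decide it. With the number as a replicate block, 10 of 10 members were higher, 0 were called for sex or interaction, and 4 of 5 ratios passed. A block without AVF male 2, AVF female 2 and the sham mice of their number and sex, added after the data were seen, called 9 of 10, with a log2 fold change of 0.55 for Col15a1 (edgeR adjusted p = 0.184), against 0.58 with all libraries and no block. The counts of members called were 0 for sex and interaction under every alternative, and 4 of 5 ratios passed in each. With the longest transcript as length, 8 of 10 members kept their place in the AVF order and 10 in sham. 29 to 161 counts limit the precision of Col8a2.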
